A study of Arabidopsis thaliana with 10 samples.

Results

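The genes described here were lowered in 1 transgenic Arabidopsis thaliana line, dC27, and stayed near the control level in the other transgenic lines. Members were chosen by the line means of log2(intensity + 16) over all 10 arrays. A probe set was a member when the dC27 mean lay at least 1 below the lower of the VC and Col-0 means, while FL3 and dC26 each lay within 0.4 of the mean of those 2 controls. The fall in dC27 alone was met by 313 probe sets, or 1.38% of all, and the whole rule by 68 of the 22746. ECS1, which also met it with 565 and 893 in dC27 against a control mean of 4932, was left out by the rule. The annotation gave 1 gene for 31 of the 68 and no gene for the other 37, which are counted here but not named.

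Seedlings were harvested after 12 days without stress, and their RNA was hybridised to Affymetrix arrays, with 2 arrays per line described by the submitters as biologically independent. dC27 and dC26 were separate lines made with the same truncated TaSIN, which lacks the transmembrane motif. FL3 carried TaSIN in full length. All 3 expressed the transgene constitutively; the promoter is not given in the sources used here. VC carried the vector with no insert. Col-0 was the wild type. Each of these is 1 line, so a difference in dC27 is a difference of that line, and the transgene itself was not measured because no probe set used here is named for it.

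In plants a constitutive transgene is usually carried on a T-DNA that inserts at a place of its own in each line, so lines made with the same construct share the transgene but not its position. The insertion sites and copy numbers of these lines were not measured here. The members include regulators of transcription, components of the ubiquitin system, which tags proteins for degradation, enzymes of small-molecule modification, receptor-type and calcium-binding proteins, and chloroplast proteins.

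The values that chose the members are a description and carry no test. Over the 68 members the dC27 difference from the controls ran from -2.08 to -1.02 on the log2 scale, with a median of -1.26, against a median of 0.0010 over all 22746 probe sets. The dC27 intensity was between 10.8% and 55.8% of the control mean, with a median of 38.0%. Both dC27 arrays lay below the other 8 arrays in 61 of the 68 members, and 9.53% of all probe sets did so. In seedlings measured in bulk, fewer cells of a type and less RNA per cell cannot be told apart.

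The limma fit, a moderated linear model over all probe sets and lines with Benjamini-Hochberg adjustment at 0.05, called 63 of the 68 lower in dC27 than in the controls, where 8.49% of all probe sets were called lower. It called 42 of them lower in dC27 than in dC26, where 2.12% of all were (0.822% were higher and 2.95% differed). The rule used these contrasts, so nothing is read from either count. No member was called by limma in dC26 (0.8% of all probe sets were called lower and 1.91% higher) or in FL3 (0.488% lower and 2.2% higher). At an unadjusted p under 0.05 there were 3 lower and 1 higher in dC26, where 18.3% of all probe sets passed it, and 7 lower in FL3, where 13.2% did. These counts too were limited by the rule, which kept both lines within 0.4 of the controls. The 3 comparisons share the same 4 control arrays.

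The members were not entirely level in the other lines. Within the 0.4 that the rule allows, the FL3 difference was below 0 in 61 of the 68 members, with a median of -0.21 and a range of -0.40 to 0.36. The dC26 difference was below 0 in 54, with a median of -0.16 and a range of -0.40 to 0.36. Over all 22746 probe sets the FL3 difference was below 0 in 11874 and the dC26 difference in 11145. The rule set dC27 against the same control arrays, so nothing is read from these counts. The control lines differed slightly as well: VC lay below Col-0 in 45 of 68 members, with a median difference of -0.13, and in 11477 of all 22746 probe sets. No member was called between VC and Col-0 by limma, where 0.0264% of all probe sets were, and 6 members had an unadjusted p under 0.05, as did 7.01% of all.

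**Figure D1:**
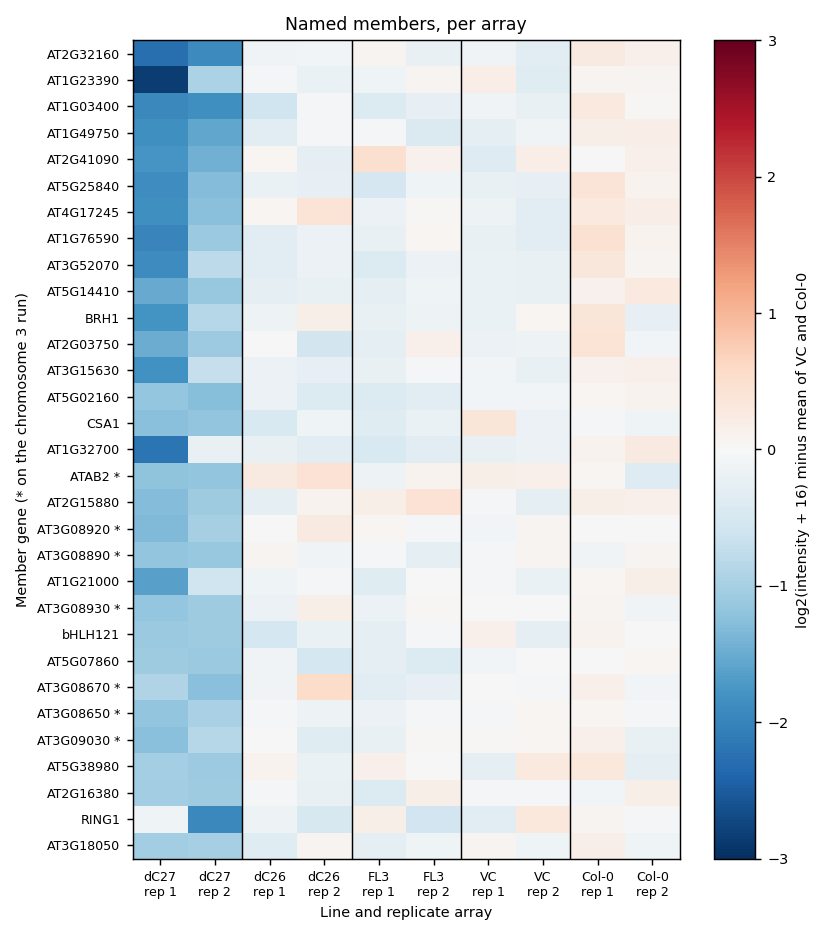
Heat map of the 31 members with a named gene (rows) in the 10 arrays (columns), as log2(intensity + 16) minus the mean of VC and Col-0. Both dC27 columns are blue in nearly every row, apart from AT1G32700 in replicate 2 and RING1 in replicate 1, and the other 8 columns stay pale.

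The rule did not use the members' places along the chromosomes. Of the 31 named members 12 lay on chromosome 3, which held 2746 of the single-gene probe sets, against 6 on chromosome 1 with 3451, 5 on chromosome 2 with 2200, 1 on chromosome 4 with 1962 and 7 on chromosome 5 with 3008. On chromosome 3, 7 members lay close together, from AT3G08010 (ATAB2) to AT3G09030, with no more than 11 steps between neighbouring members when single-gene probe sets are counted in gene order. The nearest pair elsewhere, AT2G15880 and AT2G16380 on chromosome 2, was 23 steps apart, and the next member on chromosome 3, AT3G15630, was 361 steps from AT3G09030. The TAIR10.1 gene table lists 64 loci between the ends of this run, of which 61 code for proteins, and 34 single-gene probe sets measured them. The run was found after the values were seen, and its ends are set by members.

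ATAB2 is a factor needed for the translation of photosystem I subunits in the chloroplast. Its intensities were 95.8 and 97.5 in dC27, 298 and 335 in dC26, 217 and 262 in FL3, 277 and 269.8 in VC, and 255 and 182 in Col-0. Its dC27 arrays agreed closely with each other and lay below all others, the log2 difference from the controls being -1.20 ± 0.15 (SE), while dC26 had the highest values. AT3G08920, a rhodanese-type protein gene, had 103 and 132 in dC27, 284 and 342 in dC26, 295 and 275 in FL3, 264 and 299 in VC, and 277 and 283 in Col-0. AT3G08930, which encodes a membrane protein of the LMBR1 type, is the next measured gene and had 208 and 223 in dC27, 431 and 553 in dC26, 427 and 497 in FL3, 491 and 489 in VC, and 518 and 449.9 in Col-0. In both genes the 8 arrays outside dC27 overlapped with each other, and none of them overlapped with dC27.

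AT3G08890, a gene of the DUF538 family, had 57.8 and 61.2 in dC27, 161 and 141 in dC26, 145 and 124 in FL3, 146 and 164 in VC, and 140.1 and 162 in Col-0. AT3G08650, which encodes a metal transporter of the ZIP type, had 108 and 129 in dC27, 255 and 240.1 in dC26, 235 and 256 in FL3, 254 and 277 in VC, and 279 and 258 in Col-0. Again no dC27 array overlapped with any other array. The remaining members of the run were AT3G08670, with 30.8 and 20.4 in dC27 and 54.5 to 111 in the other 8 arrays, and AT3G09030, a BTB-domain protein gene, with 37.5 and 54.8 in dC27 and 83.2 to 126 in the other 8 arrays. Over the 7 members dC27 stood at 35.8% to 44.3% of the control mean, and the log2 differences lay between -1.20 and -1.06.

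Most genes of the run that were not members also had lower values in dC27. Of its 34 probe sets, 27 were not members, and 13 of these had a mean log2(intensity + 16) of at least 6 over all arrays. All 13 had a difference below 0 in dC27, with a median of -0.70. Of the 5732 probe sets of that mean level elsewhere that were not members, 54.7% did. limma called 8 of the 13 lower in dC27, or 61.5%, against 13.5% of the 5732, and called 0 higher. Of these 8 calls, 4 held under all alternatives run. Without dC27 replicate 1 the median of the 13 was -0.69, and without replicate 2 it was -0.73. Over all 27, with no minimum on the level, the median was -0.45 and 12 were called lower. The strongest of the 13 was LHCB4.2, a minor antenna protein of photosystem II, at 402 and 604 in dC27 against a control mean of 1611, a difference of -1.65 ± 0.20 (limma, Benjamini-Hochberg adjusted p = 0.0010). It missed the rule because FL3 was at -0.79. AT3G08610, which encodes a small subunit of mitochondrial complex I, was at 612 and 737 in dC27 against 1337, a difference of -0.97 (limma, adjusted p = 0.0025). ATSIK, a protein kinase gene, had -0.92, AT3G08780 -0.84, AT3G08740, an elongation factor P gene, -0.80, AT3G08600 -0.72, RAPTOR1, a partner of the TOR kinase, -0.70 and AT3G08620 -0.51 (limma, adjusted p from 0.0037 to 0.031). The calls of AT3G08600 and AT3G08740 ended without dC27 replicate 1, and those of RAPTOR1 and AT3G08620 when either dC27 array or any 1 of several control arrays was left out. The other 5 were not called: AT3G08030 at -0.51, AT3G08680 at -0.46, AT3G09020 at -0.45, AT3G08630 at -0.22 and AT3G08980 at -0.09, the sign of which turned without dC27 replicate 1 and against Col-0 alone.

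On both sides of the run genes moved in both directions. The 20 probe sets of that mean level before it had a median dC27 difference of -0.01, with 2 called lower and 4 higher, and the 20 after it had -0.09, with 1 lower and 4 higher. A running median of the dC27 difference over 9 neighbouring probe sets of that level, members included, was lowest in the run, at -1.06. Outside the run its lowest value was -0.80, centred on AT3G23700, also on chromosome 3. The members were chosen for their fall and define the run, so nothing is read from this comparison. In the other lines the 13 genes of the run that were not members had medians of 0.02 in dC26 and 0.04 in FL3. limma called 0 of the 13 in either line, and 1 in dC26 and 4 in FL3 had an unadjusted p under 0.05. Tested directly, 4 of the 13 were lower in dC27 than in dC26 (limma), or 30.8%, against 3.05% of the 5732. The medians of the 13 were -0.73 in dC27 replicate 1 and -0.69 in dC27 replicate 2.

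**Figure D2:**
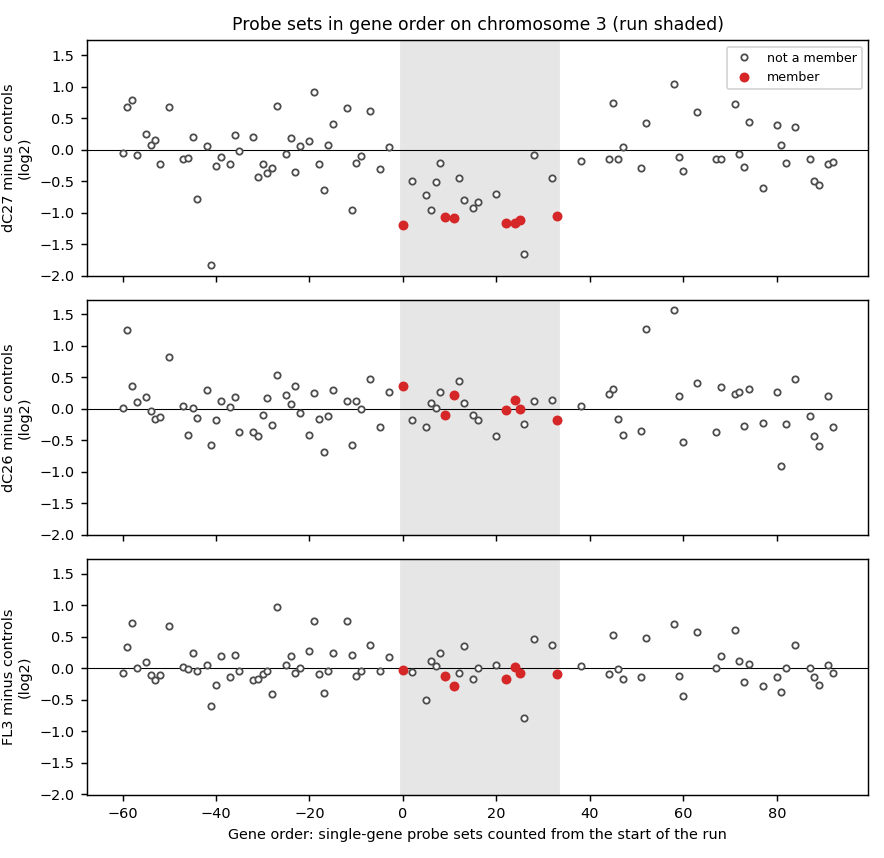
Log2 difference from the mean of VC and Col-0 (vertical) for dC27, dC26 and FL3, for probe sets with a mean log2(intensity + 16) of at least 6, in gene order on chromosome 3 (horizontal, counted from the start of the run). In the shaded run the 13 open points, genes that are not members, are all below 0 in dC27, with a median of -0.70, while in dC26 and FL3 they scatter around 0; red points are the 7 members, chosen by the rule.

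The other 24 named members lay singly. The 48 probe sets next to them in gene order, at the same minimum level, had a median dC27 difference of -0.18, and limma called 8 of them lower, or 16.7%, close to the 13.5% of the 5732, and 2 higher, AT1G49740 (0.70) and AT4G17260 (1.16). The 8 were AT3G61260 (-1.28), AT5G39020 (-1.24), AT3G52060 (-1.01), AT3G18035 (-0.86), AT5G10460 (-0.76), AT5G38895 (-0.72), AT2G16365 (-0.63) and AT5G02150 (-0.61). AT5G38895 and AT5G39020 lie on either side of the member AT5G38980.

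Among the regulators of transcription, 3 members encode PLATZ proteins, plant-specific zinc-binding proteins that bind A/T-rich DNA. AT1G76590 had intensities of 59.3 and 119.9 in dC27, 216 and 247 in dC26, 237 and 294 in FL3, 235 and 219 in VC, and 389 and 301 in Col-0. AT1G21000 had 203 and 430.2 in dC27, 603 and 649 in dC26, 516 and 657 in FL3, 639 and 580.4 in VC, and 694 and 758 in Col-0. In both genes replicate 1 of dC27 was the lowest array, replicate 2 the next, and the groups did not overlap. AT1G32700 had 156 and 653 in dC27, 656 and 607 in dC26, 558 and 604 in FL3, 662 and 682 in VC, and 833 and 933 in Col-0. Here replicate 2 of dC27 lay among the other arrays, and the difference of -1.21 ± 0.40 rests on replicate 1: it was -2.19 without replicate 2 and -0.23 without replicate 1.

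The family was looked up after the members were seen, and 7 of 12 PLATZ genes had a single-gene probe set. AT5G46710 went the other way and rose in dC27 by 1.18 (limma, adjusted p = 0.0058) and in FL3 by 2.30. AT4G17900, AT1G31040 and AT1G43000 were not called, with dC27 differences of -0.04, -0.28 and 0.02, the first and the last of which turned sign under some alternatives. bHLH121, a transcription factor of the iron deficiency response, had 329 and 342 in dC27, 502 and 641 in dC26, 598 and 720.4 in FL3, 811 and 608 in VC, and 794 and 743 in Col-0. Its dC27 arrays were close to each other and below all others, and the difference was -1.10 ± 0.15. In the iron homeostasis list, which does not hold bHLH121, 0 of 3 measured genes were called in dC27 (limma), with differences of 0.02 to 0.19.

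Ubiquitin-system genes made up another group. AT1G23390 encodes a Kelch-repeat F-box protein that targets chalcone synthase, the entry enzyme of flavonoid synthesis, for degradation. It had 135 and 546 in dC27, 1052 and 925 in dC26, 977 and 1132 in FL3, 1239.5 and 824 in VC, and 1138 and 1129 in Col-0. The groups did not overlap, but the dC27 arrays lay far apart, and the difference of -1.90 ± 0.41 was -2.85 without replicate 2 and -0.95 without replicate 1. In the list of flavonoid and anthocyanin genes 1 of 5 was called in dC27, AT1G06000, a flavonol rhamnosyltransferase gene, which rose by 0.46 (limma, adjusted p = 0.042). Its call ended without any 1 of 6 arrays, dC27 replicate 1 among them.

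The RING-finger proteins, a class of ubiquitin ligases, were represented by AT4G17245, BRH1 and RING1. AT4G17245 had 31.5 and 54.5 in dC27, 161 and 208 in dC26, 133 and 158 in FL3, 136 and 119 in VC, and 189 and 178 in Col-0. BRH1, a RING-H2 gene named for its response to brassinosteroids, had 88.1 and 186 in dC27, 309 and 392 in dC26, 296 and 311 in FL3, 299 and 364 in VC, and 453 and 292 in Col-0. Both were below all other arrays in dC27, with replicate 1 the lower. RING1, which acts in cell death responses to pathogens, had 216 and 50.7 in dC27, 215 and 168 in dC26, 272 and 156 in FL3, 185 and 299.8 in VC, and 255 and 231 in Col-0. Its replicate 1 in dC27 lay within the range of the other lines, and the difference of -1.04 ± 0.42 was -1.94 without replicate 1 and -0.14 without replicate 2.

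**Figure D3:**
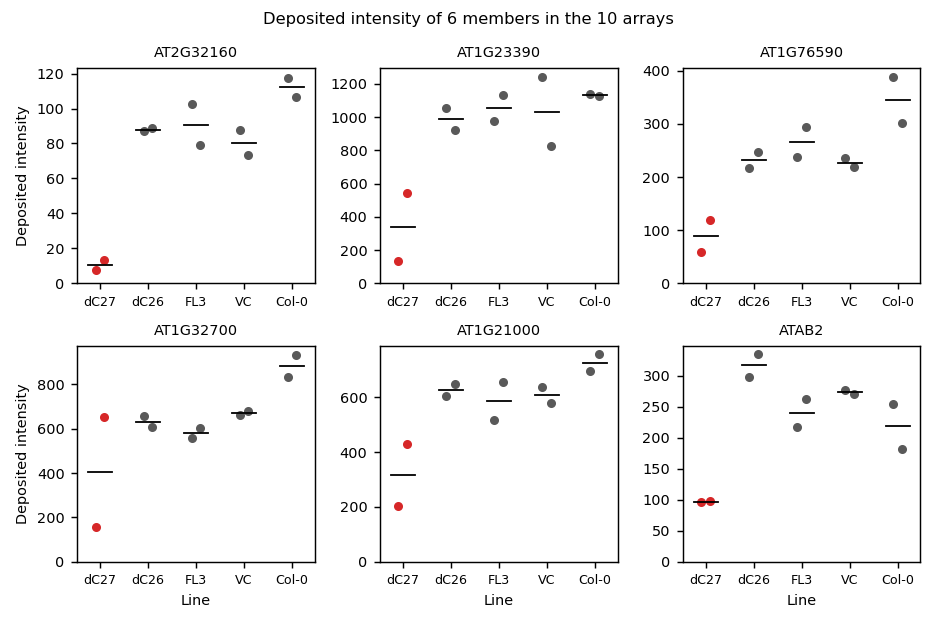
Deposited intensity (vertical, linear, from 0) of 6 members in dC27, dC26, FL3, VC and Col-0; each point is an array and each bar the mean of 2 arrays. The dC27 points (red) of AT2G32160 and ATAB2 lie close together, while those of AT1G32700 lie apart, at 156 and 653.

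The enzyme genes included the member with the largest log2 difference. AT2G32160 encodes a methyltransferase of the S-adenosylmethionine-dependent type, and its intensities were 7.32 and 13.6 in dC27, 87.3 and 88.6 in dC26, 102 and 79.3 in FL3, 87.6 and 73.3 in VC, and 118 and 107 in Col-0. The dC27 values were close to the low end of the scale, where 34.8% of all values are below 16, so the difference of -2.08 ± 0.16 on the log2(intensity + 16) scale understates the ratio. AT1G03400, which encodes an oxygenase of the 2-oxoglutarate-dependent type, had 38.1 and 41.4 in dC27, 119 and 184 in dC26, 138 and 158 in FL3, 175 and 159.6 in VC, and 235 and 196 in Col-0. These genes separated dC27 from every other array, with small gaps between its replicates. A sulfotransferase gene, AT2G03750, had 20.8 and 32.4 in dC27, 85.4 and 54.2 in dC26, 68.2 and 98.3 in FL3, 75.1 and 75.7 in VC, and 121 and 81.2 in Col-0. AT5G07860, an acyltransferase gene of the HXXXD type, had 75.7 and 72.5 in dC27 and 118 to 185 in the other 8 arrays.

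Receptor-type and signalling proteins formed the next group. CSA1 encodes an intracellular receptor of the TIR-NBS-LRR type, and its mutant was named for constitutive shade avoidance. Its intensities were 54.9 and 58.2 in dC27, 108 and 139.8 in dC26, 115 and 131 in FL3, 200.4 and 135 in VC, and 147 and 139 in Col-0. AT2G41090, a calmodulin-like calcium-binding protein gene, had 509 and 645 in dC27, 1828 and 1471 in dC26, 2479.96 and 1943 in FL3, 1348 and 2046 in VC, and 1793 and 1976 in Col-0. AT1G49750, which encodes a leucine-rich repeat protein, had 129.97 and 159.7 in dC27, 393 and 489 in dC26, 494 and 369.9 in FL3, 417 and 469 in VC, and 567 and 580.2 in Col-0. In all 3 genes both dC27 arrays were below the other 8, and in AT2G41090 the highest value was that of FL3 replicate 1. A gene for a leucine-rich repeat extensin, AT2G15880, had 28.4 and 36.1 in dC27, 73.9 and 102 in dC26, 108 and 132 in FL3, 91.5 and 72.9 in VC, and 108 and 105 in Col-0.

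AT5G02160 encodes a thylakoid protein that interacts with an FtsH protease. It had 995 and 912 in dC27, 1994 and 1688 in dC26, 1699.9 and 1806 in FL3, 2120.5 and 2117 in VC, and 2341 and 2431 in Col-0, a difference of -1.22 ± 0.11. Photosynthesis genes as a list were not members: in dC27 limma called 2 of 5 measured genes lower, LHCB4.2 and LHCB4.1, with log2 differences of -1.65 and -0.50, and 0 in dC26 and in FL3. PSAE-1, PSBY and RCA had -0.35, -0.21 and -0.15 and were not called. The call of LHCB4.1 ended when either dC27 array was left out.

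The other named members have less defined roles. AT2G16380, a gene for a lipid-binding protein of the Sec14 type, had 30.8 and 30.5 in dC27 and 57.2 to 93.7 in the other 8 arrays. AT3G18050, which encodes a membrane-anchored protein, had 230.2 and 238 in dC27 and 377 to 555 in the other 8 arrays. Both separated dC27 cleanly from the other lines. AT5G25840 had 72.6 and 116 in dC27, 263 and 255 in dC26, 213 and 278 in FL3, 261 and 254 in VC, and 405 and 329 in Col-0. AT3G52070 had 73.6 and 175 in dC27, 248 and 277 in dC26, 235 and 277 in FL3, 273 and 269.8 in VC, and 402 and 334 in Col-0. AT5G14410 had 31.5 and 45.7 in dC27, 96.7 and 100.8 in dC26, 94.7 and 108 in FL3, 102 and 100.5 in VC, and 132 and 151 in Col-0. In these 3 genes replicate 1 was the lower dC27 array. AT3G15630 showed the same order, with 604 and 1334 in dC27, 1915 and 1836 in dC26, 1849 and 2070.4 in FL3, 2057 and 1849.8 in VC, and 2378 and 2424 in Col-0. AT5G38980 did not, with 531 and 508 in dC27 and 887 to 1362 in the other 8 arrays.

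The 37 members without a named gene had dC27 differences of -1.92 to -1.06, with a median of -1.31. Both dC27 arrays were below the other 8 in 32 of them, as they were in 9.53% of all probe sets. The rule chose low dC27 means, so nothing is read from this count. The probe set with the largest difference among them had 143 and 132 in dC27, 427 and 683 in dC26, 521 and 426 in FL3, 528 and 547 in VC, and 706 and 489.7 in Col-0. The one whose dC27 arrays were farthest apart had 238 and 1836 in dC27 and 1450.3 to 2242 in the other 8 arrays. There replicate 2 was inside the range of the other lines.

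The members fell into those in which both dC27 arrays were alike and those carried mainly by 1 array. Taken alone, replicate 1 was at least 1 below the lower control mean in 58 of the 68 members (1.87% of all probe sets were) and replicate 2 in 39 (1.5% were). Both were in 29 (0.8% were). Without replicate 1 the rule found 56 members, of which 39 were among the 68, and without replicate 2 it found 127, of which 58 were. Replicate 1 was the lower in 49 members and replicate 2 in 19. Over all probe sets replicate 1 was the lower in 12218 and replicate 2 in 10521, and at a mean level of at least 6 in 5177 and 5815. The rule acts on the mean of the dC27 arrays, so 1 very low array can make a member. The median absolute difference between the 2 arrays was 0.39 over all members, against 0.17 over all probe sets with a mean level of at least 6. Over the 7 members of the chromosome 3 run it was 0.23, with a largest value of 0.40, and over the 24 named members elsewhere it was 0.36, with a largest value of 1.96. The places of the other 37 are not known here. The dC27 replicates were the least alike of any line over all probe sets, with a correlation of 0.971 against 0.986 to 0.993 in the other 4 lines.

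**Figure D4:**
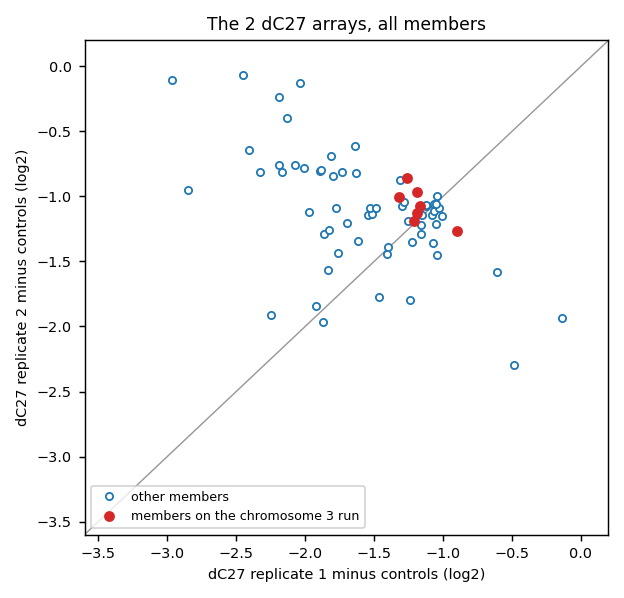
Log2 difference from the mean of VC and Col-0 in dC27 replicate 1 (horizontal) and replicate 2 (vertical) for the 68 members, with the line of equal values. The 7 members of the chromosome 3 run (red) lie between -1.32 and -0.86 on both axes, whereas others reach beyond -2 on 1 axis and near 0 on the other.

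At the edges of the rule, the named members just inside were AT1G21000 and AT2G16380, each 1.00 below the lower control mean, and AT1G32700, with FL3 at -0.398. Just outside were AT3G57800 and AT2G25510, with FL3 at -0.402 and -0.408, and AT4G19160, 0.986 below the lower control mean. AT2G25510 was at 634 and 1653 in dC27 against 3808 to 7156 in the other 8 arrays, a larger dC27 difference, at -2.57, than that of any member. It was -1.89 without dC27 replicate 1 and -3.25 without replicate 2.

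None of the 31 named members was in the 22 gene lists, which held 418 genes, of which 88 were measured by a single-gene probe set. The other 37 members have no gene here and could not be matched to a list. The lists show what else moved in dC27, where limma called 16.7% of all probe sets, 8.2% higher and 8.49% lower. A change given here for dC27 is not a change in dC27 alone. In the mitochondrial retrograde list, genes induced when respiration is disturbed, all 9 measured genes rose, with the largest changes in AT2G21640 (5.40), AT2G04050 (5.07), AT2G32020 (4.29) and GSTU25 (2.77). These 4 genes also had differences of 2.96 to 5.01 in dC26. Among auxin response genes 5 of 8 fell, including IAA29 (-2.01), GH3.3 (-1.50), HAT2 (-1.11) and WES1 (-0.94). IAA29, GH3.3 and WES1 had -1.26, -0.59 and -1.84 in dC26, where limma called WES1. In FL3 they had 0.22, -0.14 and -0.63 and were not called. The difference of IAA29 was -1.28 without dC27 replicate 1 and -2.73 without replicate 2, and that of AT2G32020 was 3.57 without replicate 1. HAT2, a transcription factor gene, had 0.13 in dC26 and 0.03 in FL3, and its call ended without any 1 of 8 arrays, with a difference of -0.52 without dC27 replicate 1. Among jasmonate genes 3 of 5 fell, all plant defensins: PDF1.2b (-3.34), PDF1.4 (-1.76) and PDF1.2 (-1.59). In FL3 these 3 had -1.78, -1.08 and -1.36, of which limma called PDF1.4. In dC26 they had -0.49, -0.69 and -0.17 and were not called. Cell wall genes moved both ways, with 3 of 8 lower, among them the expansin EXPA8 (-1.60) and the xyloglucan-modifying XTH16 (-1.29), and 2 higher, the expansins EXPA15 (0.94) and EXPA4 (0.85).

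In other lists few genes were called. COR15A fell by 1.30 and LTI30 rose by 1.21 among 5 cold-regulated genes, AT1G10340 fell by 2.39 among 3 of the salicylate list, and GAT1_2.1 fell by 2.25 among 2 of the nitrate list. ALDH6B2 fell by 0.82, the 1 measured gene of the senescence list, BGLU28 fell by 0.47 among 2 sulfur genes, and AFR rose by 0.62 among 2 clock and light genes. In dC26 the differences of AT1G10340, GAT1_2.1 and ALDH6B2 were -1.53, -1.57 and -0.84, and BGLU28 went the other way, at 0.70. Of these limma called AT1G10340 and BGLU28 in dC26. limma called 0 of the measured genes in dC27 in the lists of heat shock (4), reference genes (6), glucosinolates (3), phosphate (1), iron (3), seed (2), flower and pollen (4) and epidermis (1); of those 24 genes 3 had an unadjusted p under 0.05, as did 29.1% of all probe sets. Among the list genes named here, calls that ended without at least 1 array were those of AFR, ALDH6B2, AT1G06000, AT4G26010, BGLU28, EXPA15, HAT2, LHCB4.1 and LTI30.

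Tissue markers moved in dC27 beside these results. Photosynthesis genes, which mark green tissue, had mean control intensities of 1611 to 5381. Those of flower, pollen, seed and epidermis markers were all under 16, at the low end of the scale. The summed intensity of the 5 photosynthesis genes was 12809 and 13977 in dC27, 18981 and 21312 in dC26 and 16910 and 16624 in FL3, against 16629 to 18810 in the 4 control arrays. This sum includes LHCB4.2, which lies on the chromosome 3 run and was at 402 and 604 in dC27 against a control mean of 1611. For the 9 root markers the sum was 982 and 1163 in dC27, 770 and 1135 in dC26 and 430.5 and 465 in FL3, against 346 to 856 in the controls. Of these 9, limma called 2 higher in dC27, the peroxidase genes AT3G01190 (1.80) and AT4G26010 (1.47). In dC26 these genes had 1.69 and 0.99, and limma called AT3G01190 there as well. In FL3 they had -0.07 and -0.17 and were not called. The part of these shifts in the lower values of the members was not tested.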

How the data were processed

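The authors deposited 1 intensity for each probe set on each array. By their range (3.68 to 12648) these are on a linear scale. Per the labels' protocols, Trizol-extracted RNA was amplified, biotin-labelled and hybridised to Affymetrix arrays. How the authors summarised, scaled and background-corrected these intensities is not given in the sources used here. No raw scanner values were used. Of 22810 probe sets, 64 controls were left out. The platform annotation gave 1 gene for 13513, several for 503 and none for 8730, and 13436 were matched by gene identifier to the TAIR10.1 table, used for names and gene order only. No sequences are shown.

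Values were transformed as log2(intensity + 16). limma 3.58.1 in R 4.3.3 was run on the 10 arrays with 1 coefficient for each line, which left 5 residual degrees of freedom. Its prior variance followed the mean level. Tests were two-sided, and within each contrast p-values over the 22746 probe sets were adjusted by Benjamini-Hochberg, with a threshold of 0.05. SE is from this fit. The number of arrays limits the precision. The rule's thresholds were applied to line means. Where a list gene had more than 1 probe set, the brightest stood for it. The fit and the rule were tested on simulated data. Figures were drawn with matplotlib 3.10.9.

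The members and lists were chosen with earlier results of these data known. The rule for names took the 20 single-gene members with the largest difference, family members, the 3 nearest on each side of a threshold, and from each list up to 4 called genes with the largest dC27 difference. The remaining single-gene members were named beyond that rule, after their values were seen, and the chromosome 3 run, its genes and the PLATZ family were chosen after the values were seen. Alternatives were pseudocounts of 1 and 64, quantile normalization, median centring, removal of the dimmest probe sets, each control line alone, leaving out each array, a replicate block, other variance priors, and tolerances of 0.3 and 0.5 and falls of 0.8 and 1.2 in the rule.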

Additional observations from a re-analysis of the deposited data

Results flagged for a closer look

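The direct test of dC27 against dC26, which carry the same truncated transgene, called 670 probe sets (limma, Benjamini-Hochberg adjusted p under 0.05), 483 lower and 187 higher in dC27. The rule builds this difference into the members, so the genes given here are others. On the chromosome 3 run the differences, dC27 minus dC26, were -1.42 for LHCB4.2, -1.06 for AT3G08610, -0.89 for AT3G08740 and -0.83 for ATSIK (adjusted p from 0.015 to 0.048). Among the list genes named above for their change in dC27, dC27 was lower than dC26, with log2 differences of -2.86 in PDF1.2b, -1.61 in XTH16, -1.16 in BGLU28, -1.07 in PDF1.4, -0.91 in GH3.3 and -0.84 in COR15A. It was higher by 1.26 in AT2G04050, 0.90 in WES1 and 0.75 in EXPA4. Over these 9 the adjusted p ran from 0.0042 to 0.046 (limma). List genes not named above also passed this test. The heat shock genes AT5G48570 (-1.35) and AT1G54050 (-1.04) and the cold-regulated COR15B (-1.26) were lower in dC27 than in dC26. NDB4 of the mitochondrial retrograde list was higher (0.90). Against the controls, limma called AT5G48570, AT1G54050 and COR15B higher in dC26 (1.47, 0.81 and 1.00) and did not call them in dC27.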

How the results depend on the processing

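The number of members moved with the settings of the rule. It was 107 with a pseudocount of 1 and 29 with 64, 120 with VC as the 1 control, 38 and 112 with tolerances of 0.3 and 0.5, and 158 and 26 with falls of 0.8 and 1.2. Leaving out 1 array gave 56 to 127 members, with 39 of the 68 kept without dC27 replicate 1, and 127 found and 58 kept without dC27 replicate 2. Quantile normalization gave 60 and median centring 74, of which 58 and 67 were among the 68. The log2 difference of each named member stayed below 0 under all alternatives run. With 1 dC27 array left out it came as near to 0 as -0.14, in RING1. The rule chose the members for their fall on these same arrays, so nothing is read from the kept sign. Alternatives for the chromosome 3 run were chosen after seeing the data. Of its 13 genes that were not members, 8 were called lower, and 4 of these calls held under all alternatives run. The median of the 13 was -0.73 to -0.60 whichever array was left out, and -0.82 and -0.43 with pseudocounts of 1 and 64. Over members and others together it was -0.88 at a minimum level of 6, -1.12 at 7 and -0.51 with no minimum.

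Probe sets called in dC27, dC26 and FL3 numbered 3797, 617 and 611, 2522, 222 and 391 against VC alone, and 2933, 406 and 391 against Col-0 alone. Leaving out 1 array gave 2366 to 4134 in dC27, 71 to 1727 in dC26, 57 to 751 in FL3, 109 to 1448 for dC27 against dC26 and 2 to 48 for VC against Col-0. The lowest counts came without Col-0 replicate 1, dC26 replicate 2, FL3 replicate 1, dC26 replicate 2 and either dC26 array. VC against Col-0 gave 6, and 13 with a robust prior; limma called 0 without the dimmest probe sets or without a trend, where 1277 and 1883 had an unadjusted p under 0.05. With the replicate number as a block, 377 were called in dC26, 446 for dC27 against dC26 and 2 for VC against Col-0, and 3357 in dC27. Deviations of same-numbered arrays from their line means correlated at -0.2 to 0.0859. A batch shared by some of the arrays was not tested.

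Signs turned for 3 genes that were not called: AT3G08980 (0.035 against Col-0 alone, and -0.24 to 0.052 with 1 array left out), AT1G43000 (-0.021 against Col-0 alone, and -0.0029 to 0.041 with 1 array left out) and AT4G17900 (0.0020 with quantile normalization, 0.083 against VC alone, and -0.10 to 0.015 with 1 array left out). The causes were not tested.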
